A study of Rattus norvegicus with 10 samples.

Results

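The 33 genes described here are the genes of myelin and of the mature oligodendrocyte, measured in punches of the rat hypothalamic supraoptic nucleus 2 weeks after viral knock-down of Opn3, the gene of the opsin encephalopsin. They were chosen by symbol, from what the genes are known for, out of the 32623 genes of the deposited table. Earlier results of these data were known when they were chosen. All 33 were found, each under 1 row. All 33 also passed the filter on low values, a mean of at least 10 normalized counts over the 10 samples, which 15597 of the 32623 genes passed. The lowest mean of the set was 148 normalized counts, and no library held fewer than 40 reads of any of the 33.

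Male Sprague Dawley rats received adeno-associated virus, a gene carrier that does not replicate, on both sides of the brain. One supraoptic nucleus got a short hairpin RNA against Opn3 (shOpn3, 5 samples), and the nucleus of the other side got a non-targeting hairpin (shControl, 5 samples). Both groups therefore carried virus, a hairpin and an injection track, and no uninjected nucleus was in the comparison. Neither the age of the rats, nor the promoter of the hairpin, nor the side that got each virus, nor the rat behind each number is given in the labels used here. Each sample was RNA from 1 nucleus, taken with a 1 mm punch from sections of 100 µm. A punch of that width takes in whatever cells lie there, so fewer cells of a type and less RNA per cell cannot be told apart in any value below.

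Oligodendrocytes are the glia that wrap axons of the brain and spinal cord in myelin, a stack of lipid-rich membrane. They arise from precursor cells that carry Pdgfra and Cspg4, under the transcription factors Olig1, Olig2 and Sox10, and Sox10 switches on Myrf, the factor that turns on the myelin genes. The finished cell makes the membrane proteins of the sheath, the enzymes of its galactolipids, and the proteins that hold its edges to the axon beside the node of Ranvier. The supraoptic nucleus itself holds the magnocellular neurons that make vasopressin and oxytocin. Their hormone genes averaged 56039 normalized counts for Avp and 26947 for Oxt in the 5 shControl samples.

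Depth ranged from 33158341 to 39958578 reads over the 10 libraries and did not separate the groups (exact permutation test, two-sided p = 0.492). Opn3 itself fell by 1.82 (log2, SE 0.32, adjusted p = 0.00226 by limma, n = 5 per group). It was lower in shOpn3 in each of the 5 same-numbered pairs, at 15.3% to 55.6% of the control of that number. The groups overlapped, since shOpn3 1, with 290 normalized counts of Opn3, lay above shControl 5. The labelled shControl 5 stood apart from the other controls, with 261 normalized counts of Opn3 where they had 694 to 1007. It was also the highest control for 31 of the 33 genes, and results without it and without shControl 1, the next highest control, are given beside the results they change.

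The regulatory sequence before 7 of the genes is printed first, since 30 of the 33 fell and a promoter is a stretch of DNA where factors such as Sox10, Olig2 and Myrf are known to bind. The windows come from RefSeq on the rat build GRCr8 and hold the 250 bases before the start of each gene, in the direction of the gene. That table held a window for 26 of the 33 genes and 28 windows in all, as Mbp and Nfasc had 2 each. Sox10, Mog, Myrf, Enpp2, Car2, Olig1 and Ermn had none. Of the windows below, 6 are those that hold CTGGCAC, one spelling of the motif of Myrf, and the seventh is the window of Mobp, which holds the SOX motif ACAAAG 8 times. Capitals mark CTGGCAC and ACAAAG on either strand, so that they also appear as GTGCCAG and CTTTGT.
Cnp: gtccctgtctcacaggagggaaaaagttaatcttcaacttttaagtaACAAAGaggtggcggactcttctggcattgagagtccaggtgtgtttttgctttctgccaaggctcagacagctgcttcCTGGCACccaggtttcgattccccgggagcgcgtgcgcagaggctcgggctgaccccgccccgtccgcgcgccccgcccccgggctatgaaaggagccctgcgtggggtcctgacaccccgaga
Mag: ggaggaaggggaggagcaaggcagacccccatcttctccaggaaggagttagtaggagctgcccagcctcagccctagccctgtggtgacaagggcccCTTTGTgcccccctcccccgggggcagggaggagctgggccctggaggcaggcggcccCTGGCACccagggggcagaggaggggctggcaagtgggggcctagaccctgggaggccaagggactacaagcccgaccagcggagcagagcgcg
Mal: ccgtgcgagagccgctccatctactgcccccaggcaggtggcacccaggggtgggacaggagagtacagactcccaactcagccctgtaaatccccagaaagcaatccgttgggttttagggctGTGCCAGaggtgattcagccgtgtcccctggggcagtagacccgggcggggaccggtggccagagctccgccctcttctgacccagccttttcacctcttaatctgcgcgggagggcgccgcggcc
Opalin: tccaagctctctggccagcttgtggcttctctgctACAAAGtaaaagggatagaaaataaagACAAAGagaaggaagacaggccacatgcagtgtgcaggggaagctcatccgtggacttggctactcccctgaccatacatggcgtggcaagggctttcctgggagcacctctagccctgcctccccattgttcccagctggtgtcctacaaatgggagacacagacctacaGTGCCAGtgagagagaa
Hapln2: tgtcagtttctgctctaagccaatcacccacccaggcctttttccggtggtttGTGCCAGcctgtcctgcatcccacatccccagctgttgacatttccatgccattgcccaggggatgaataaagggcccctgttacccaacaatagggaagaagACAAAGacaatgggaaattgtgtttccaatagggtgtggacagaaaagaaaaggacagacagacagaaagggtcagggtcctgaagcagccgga
Olig2: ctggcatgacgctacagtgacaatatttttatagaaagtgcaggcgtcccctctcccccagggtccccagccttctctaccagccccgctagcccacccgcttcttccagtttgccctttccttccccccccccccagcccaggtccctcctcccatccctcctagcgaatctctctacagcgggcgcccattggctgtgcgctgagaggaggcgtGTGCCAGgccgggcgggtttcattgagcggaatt
Mobp: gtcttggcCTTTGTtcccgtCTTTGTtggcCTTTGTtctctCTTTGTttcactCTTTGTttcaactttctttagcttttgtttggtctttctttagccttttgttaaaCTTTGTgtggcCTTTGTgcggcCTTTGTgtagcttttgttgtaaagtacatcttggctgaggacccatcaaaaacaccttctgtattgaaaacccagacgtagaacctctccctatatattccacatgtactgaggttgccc

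The Cnp window lies at chr10:86011254-86011503 (plus strand), the Mag window at chr1:95291045-95291294 (minus strand) and the Mal window at chr3:135341424-135341673 (minus strand). Those of Opalin and Hapln2 lie at chr1:249858191-249858440 (minus strand) and chr2:175794439-175794688 (minus strand), and those of Olig2 and Mobp at chr11:43961335-43961584 (plus strand) and chr8:128746982-128747231 (plus strand). These stretches and the 50 bases after each start were searched on both strands for 5 motifs, none of which contains another. The windows of the set were richer in the bases G and C, with a median of 63.3% against 51.7% of all windows. The shares that follow were not matched for this. CTGGCAC was in 6 of the 28 windows of the set (21.4%) and in 4.75% of all 33469 windows of the table. Its first base lay 124 bases before the start of Cnp, 94 before Mag, 126 before Mal, 17 before Opalin, 197 before Hapln2 and 34 before Olig2. Windows were found for 26 further genes of the mature oligodendrocyte, a list described below, and CTGGCAC was in 0 of their 29 windows. Among precursor genes it was in 1 of 23 windows. The share of the set was not the highest of the lists: microglia markers held it in 3 of 8 windows (37.5%) and choroid plexus markers in 1 of 4. ACAAAG was in 6 of the 28 windows (21.4%), close to the 18.8% of all windows, and in Mobp its 8 copies lay between 242 and 120 bases before the start. The shorter SOX motif ACAAT was in 32.1% of the set and 33.7% of all windows. The E-box CAGCTG, a motif of the family to which Olig1 and Olig2 belong, was in 21.4% of the set and 15.1% of all, and the E-box CATCTG in 10.7% and 16.6%. A match shows only that these letters stand in the window.

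Across the set, 30 of the 33 genes fell in shOpn3 and none rose, against a background of 8.48% of all 15597 genes called lower and 10.4% called higher (limma, Benjamini-Hochberg adjusted p under 0.05 over all genes). The median log2 fold change of the 33 was -1.07, and the median over all genes tested was -0.02. The 33 shOpn3 means stood at 29.2% (Hapln2) to 78.8% (Aspa) of the shControl means, with a median of 47.4%. The log2 fold change was -1 or lower for 20 of the 33, and for 1.28% of all genes tested. For 29 of the 33, every shOpn3 sample lay below every shControl sample, which held for 7.23% of all genes. The 3 genes that missed the threshold were Aspa, Gsn and Sirt2. With the replicate number as a block all 33 were called lower, against a background of 15.2%, Aspa at an adjusted p of 0.0138, Gsn at 0.0341 and Sirt2 at 0.0337 by limma. By the authors' own test, in their deposited table, 31 of the 33 carried an adjusted p under 0.05 with a lower shOpn3 level, against 9.89% of the genes with an adjusted p there. Without both high controls (1 and 5) the median log2 fold change of the 33 was -0.85. Then 25 of the 33 were called, and the 5 lost, Sox10, Olig2, Nfasc, Gal3st1 and Tf, had adjusted p of 0.0509 to 0.0712 by limma.

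**Figure D1:**
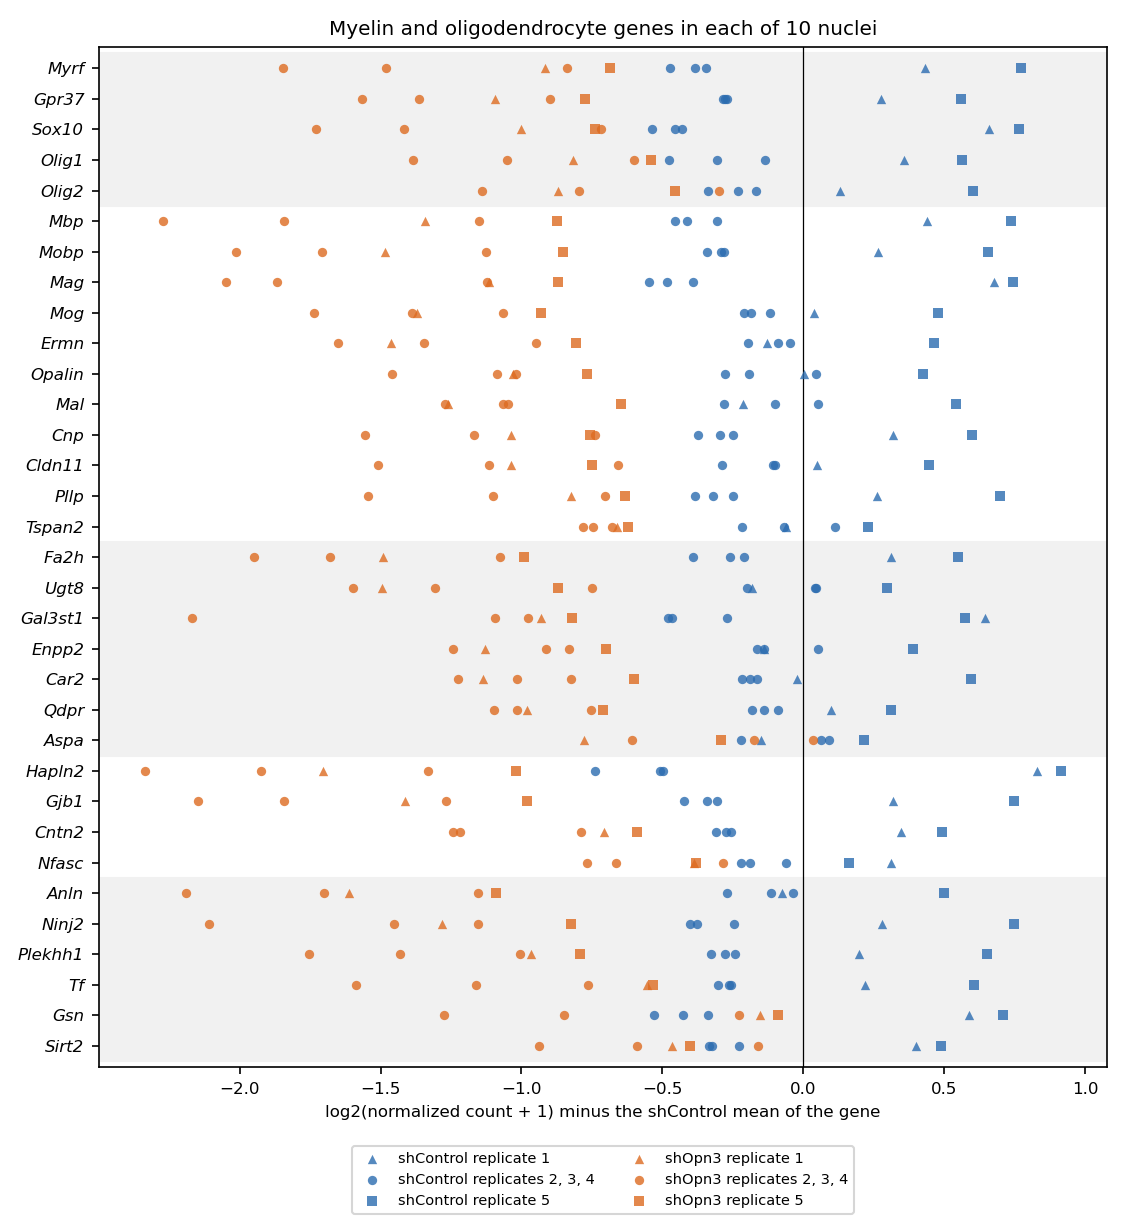
Level of each of the 33 genes in each of the 10 samples, as log2(normalized count + 1) minus the mean of the 5 shControl samples, with 1 point per sample, shControl in blue and shOpn3 in orange. Triangles and squares mark replicates 1 and 5. The 2 groups do not overlap for 29 genes, and overlap for Olig2, Aspa, Gsn and Sirt2.

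**Figure D2:**
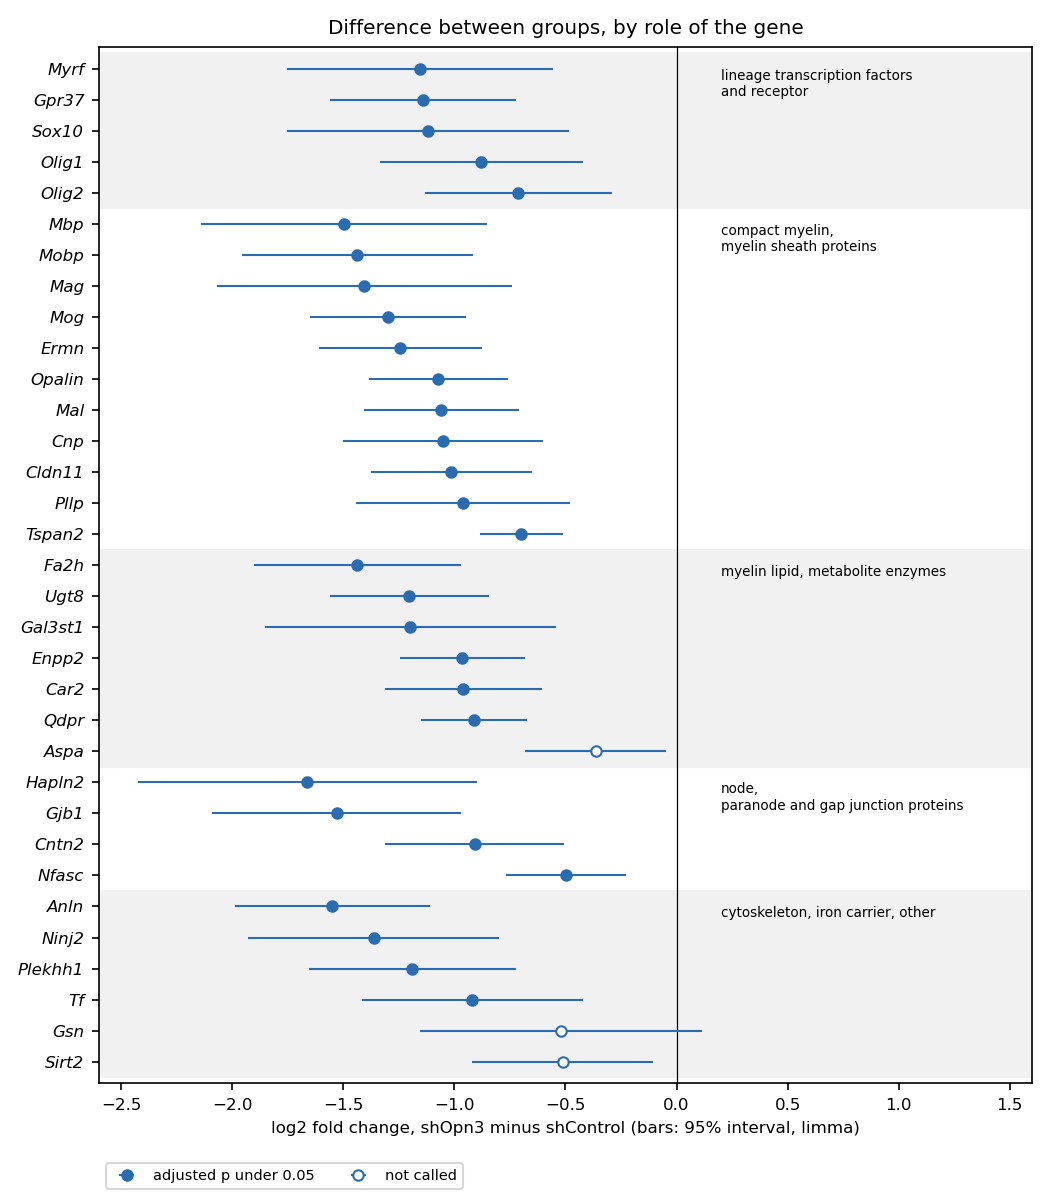
Log2 fold change of shOpn3 against shControl for each of the 33 genes, grouped by role, with the 95% interval of limma as bars. Filled points are the 30 genes with an adjusted p under 0.05, and open points are Aspa, Gsn and Sirt2.

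Among the lineage regulators, all 5 genes fell, with a median log2 fold change of -1.12. Myrf, the transcription factor that starts and maintains myelin gene expression, had 6584, 3843, 3519.7, 3739 and 8336 normalized counts in shControl 1 to 5 and 2584, 1357, 1749, 2732 and 3034 in shOpn3 1 to 5. Every shOpn3 value was below the lowest control, and controls 1 and 5 stood well above the other 3. Its log2 fold change was -1.15 (SE 0.28, adjusted p = 0.0119 by limma). Sox10, the factor required for the oligodendrocyte to mature, had 1926, 888, 839.9, 904 and 2075 normalized counts in shControl 1 to 5 and 608, 367, 456, 742 and 730.4 in shOpn3 1 to 5. The groups did not overlap, but shOpn3 4 and 5 came close to the lowest controls, and the log2 fold change of -1.12 (SE 0.29, adjusted p = 0.0185 by limma) depended on the libraries, with an adjusted p of 0.0509 without controls 1 and 5 and 0.0521 without shOpn3 3. Gpr37, a receptor of maturing and myelinating oligodendrocytes, had 10367, 7071, 7106, 7042 and 12625 normalized counts in shControl 1 to 5 and 4013, 2892, 3332, 4594 and 5010.3 in shOpn3 1 to 5. Controls 2 to 4 lay close together, and each was above the highest shOpn3 value. Gpr37 fell by 1.14 (log2, SE 0.19, adjusted p = 0.00177 by limma).

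The pair Olig1 and Olig2, neighbouring genes for basic helix-loop-helix factors, had log2 fold changes nearer to 0 than the other 3. Olig1, which acts late in maturation, had 3090.0, 1952, 1733, 2196 and 3561 normalized counts in shControl 1 to 5 and 1368, 923, 1164, 1592 and 1659 in shOpn3 1 to 5, without overlap. Its log2 fold change was -0.88 (SE 0.21, adjusted p = 0.0123 by limma). Olig2, which specifies the lineage and is already high in precursors, had 1189, 925, 859, 966 and 1649 normalized counts in shControl 1 to 5 and 594, 492, 624, 882 and 792 in shOpn3 1 to 5. Here shOpn3 4 lay above shControl 3, the only overlap among the 5 regulators. At a log2 fold change of -0.71 (SE 0.19, adjusted p = 0.0227 by limma), Olig2 had the weakest call of the 30, and it was lost in 6 of the alternatives tried, among them leaving out shOpn3 2 (adjusted p = 0.0515), shOpn3 3 (adjusted p = 0.0567) or both pairs with a high control (adjusted p = 0.0955).

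All 11 genes for proteins of the sheath fell at the RNA level, and none of the 11 overlapped between the groups. Mbp, the basic protein that pulls the cytoplasmic faces of the membrane together, is named for its share of the reads, chosen after its values were seen: it alone took 0.756% of all reads in the shControl mean and 0.280% in the shOpn3 mean. Mbp had 346979.5, 186877, 192279, 207331 and 426994 normalized counts in shControl 1 to 5 and 100979, 53055, 71470.0, 115324 and 139828 in shOpn3 1 to 5. Even the highest shOpn3 value, in sample 5, was below the lowest control, in sample 2. Its log2 fold change of -1.50 (SE 0.30, adjusted p = 0.00445 by limma) was the lowest of the 11. Mog, a glycoprotein of the outermost lamella, had 11204, 9427, 10046, 9579 and 15192 normalized counts in shControl 1 to 5 and 4216, 3273, 4165, 5211 and 5719 in shOpn3 1 to 5. The 5 controls of Mog lay closer together than those of Mbp, and the log2 fold change was -1.30 (SE 0.16, adjusted p = 0.000407 by limma).

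Ermn, a cytoskeletal protein of late myelin formation, had 15218, 14519, 16079.8, 15615 and 22923 normalized counts in shControl 1 to 5 and 6037, 5290.2, 6537, 8618 and 9515 in shOpn3 1 to 5. Control 5 stood far above the other 4 controls, and all 5 were above the highest shOpn3 value. The log2 fold change was -1.24 (SE 0.17, adjusted p = 0.00061 by limma). Opalin, a membrane glycoprotein of the mature cell, had 15170.5, 13256, 15621, 12512 and 20345 normalized counts in shControl 1 to 5 and 7424, 5509, 7139, 7482 and 8905 in shOpn3 1 to 5. Its lowest control was above its highest shOpn3 value, and the log2 fold change was -1.07 (SE 0.14, adjusted p = 0.000568 by limma). Tspan2, a tetraspanin that is on from early maturation, had 14749, 14672, 16619.6, 13236 and 18035 normalized counts in shControl 1 to 5 and 9712, 8939, 9172, 9596 and 9985 in shOpn3 1 to 5. The 5 shOpn3 values differed little among themselves, with an SD of 421 around a mean of 9481, and all were below the controls. Tspan2 showed the smallest change of the 11, -0.70 (SE 0.09, adjusted p = 0.000398 by limma). The other 6, Mobp, Mag, Cnp, Cldn11, Mal and Pllp, had log2 fold changes from -1.44 (Mobp) to -0.96 (Pllp). They include Mag, the adhesion protein of the innermost lamella that faces the axon (-1.41), Cnp, the phosphodiesterase of the non-compact cytoplasmic channels (-1.05), and Cldn11, the tight junction protein between lamellae (-1.01).

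Of the 7 enzyme genes, 6 fell. Ugt8, which makes galactosylceramide, the main glycolipid of myelin, had 16226, 16038, 19003, 18936 and 22623 normalized counts in shControl 1 to 5 and 6542, 6085, 7444, 10949.8 and 10081 in shOpn3 1 to 5. The groups were far apart, with shOpn3 4 the highest of its group at less than the lowest control, and the log2 fold change was -1.20 (SE 0.16, adjusted p = 0.000613 by limma). Fa2h, which hydroxylates the fatty acids of these lipids, had 3930.0, 2419, 2646, 2742 and 4639 normalized counts in shControl 1 to 5 and 1128, 821, 989.7, 1502 and 1593 in shOpn3 1 to 5. All shOpn3 values lay below the lowest control, in sample 2, and its log2 fold change of -1.44 (SE 0.21, adjusted p = 0.000919 by limma) was the largest of the enzymes. Gal3st1, which sulfates galactosylceramide to sulfatide, had the fewest normalized counts of the set, with a mean of 207 ± 83.0 in the controls and 88.7 ± 26.7 after Opn3 knock-down (SD, n = 5 each). The call of Gal3st1, at -1.20 (SE 0.30, adjusted p = 0.0157 by limma), was lost without controls 1 and 5 (-0.79, adjusted p = 0.0646).

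Qdpr, which recycles the cofactor tetrahydrobiopterin, had the lowest adjusted p of the 33. It had 10425, 8836, 8579, 9135 and 12084 normalized counts in shControl 1 to 5 and 4936, 4544, 4811, 5769.5 and 5944 in shOpn3 1 to 5. Both groups were tight and did not overlap, and the log2 fold change was -0.91 (SE 0.11, adjusted p = 0.000367 by limma). Enpp2, or autotaxin, which makes lysophosphatidic acid outside the cell, had 18791, 18753, 21444, 18463 and 27068 normalized counts in shControl 1 to 5 and 9444, 8727, 10968, 11631 and 12718 in shOpn3 1 to 5. Each shOpn3 value was below each control, and the log2 fold change was -0.96 (SE 0.13, adjusted p = 0.000568 by limma). Car2, the carbonic anhydrase of oligodendrocytes, fell likewise by 0.96 (log2, SE 0.16, adjusted p = 0.00184 by limma). Aspa, which cleaves N-acetylaspartate from neurons to acetate for myelin lipids, had 2685, 2553, 3110.4, 3169 and 3457 normalized counts in shControl 1 to 5 and 1734, 1954, 2635, 3050.4 and 2432 in shOpn3 1 to 5. Its groups overlapped, since shOpn3 3 and 4 lay above the lowest control. The log2 fold change of Aspa, -0.36 (SE 0.15, adjusted p = 0.106 by limma), did not pass, with a 95% interval of -0.68 to -0.05, and it passed without shOpn3 4 (-0.46, adjusted p = 0.0365).

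All 4 genes of nodes, paranodes and gap junctions fell, with a median log2 fold change of -1.22. Hapln2, a link protein of the matrix at central nodes, had 1635, 652, 552, 648 and 1738 normalized counts in shControl 1 to 5 and 282, 182, 242, 365 and 454 in shOpn3 1 to 5. Controls 1 and 5 were at 2.65 and 2.81 times the mean of controls 2 to 4, and every shOpn3 value was below all 5 controls. In the fit of all 10 samples Hapln2 had the largest fall of the 33, -1.66 (SE 0.35, adjusted p = 0.00622 by limma). That rank rested on pairs 1 and 5, where its log2 differences were -2.53 and -1.93 and those of Anln -1.54 and -1.59. In pairs 2, 3 and 4 Anln fell more, by 1.92, 1.59 and 1.12 against 1.84, 1.19 and 0.83 for Hapln2. Gjb1, connexin 32 of the channels between myelin layers, had 2055, 1333, 1229, 1299.6 and 2768 normalized counts in shControl 1 to 5 and 618, 371, 459, 683 and 835 in shOpn3 1 to 5. No shOpn3 value reached the lowest control, and the log2 fold change was -1.53 (SE 0.26, adjusted p = 0.00177 by limma).

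Cntn2, or TAG-1, an adhesion protein beside the paranode that neurons also make, had 8443, 5563, 5361, 5498 and 9354 normalized counts in shControl 1 to 5 and 4069.7, 2805, 2857, 3846 and 4411 in shOpn3 1 to 5. The groups did not overlap, at a log2 fold change of -0.91 (SE 0.19, adjusted p = 0.0051 by limma). Nfasc, the neurofascin gene, has a glial form at the paranode and a neuronal form at the node, which a count per gene does not separate. Nfasc had 19104, 14761, 13503, 13208 and 17248 normalized counts in shControl 1 to 5 and 11773, 9041, 9717, 12647 and 11829 in shOpn3 1 to 5. The gap between the lowest control and the highest shOpn3 value was small, and the log2 fold change of -0.50 (SE 0.13, adjusted p = 0.0155 by limma) was the smallest of the 30 that were called. That call was lost when all samples were scaled to the same total (-0.43, adjusted p = 0.0561), after quantile normalization (-0.37, adjusted p = 0.0937) and without controls 1 and 5 (-0.34, adjusted p = 0.0532).

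The last 6 genes have other roles in the cell, and 4 of them fell. Anln, or anillin, a scaffold of the septins that line mature myelin and of the cleavage furrow of dividing cells, had 3034, 2648, 2955, 3119.7 and 4516 normalized counts in shControl 1 to 5 and 1045, 699.9, 982, 1437 and 1501 in shOpn3 1 to 5. Each shOpn3 value was below each control by a wide margin, and Anln fell by 1.55 (log2, SE 0.20, adjusted p = 0.000483 by limma). In the same libraries 2 of 8 markers of dividing cells rose by limma, where 10.4% of all genes rose. None of the 8 fell by limma, edgeR or DESeq2 or at an unadjusted p under 0.05. The summed level of the 8 ran from 604 to 781 in shControl and from 575 to 2219 in shOpn3, and its part in the level of Anln was not tested. Plekhh1, a protein with pleckstrin homology domains, had 5494, 4051, 3947, 3822 and 7521 normalized counts in shControl 1 to 5 and 2455, 1420.0, 1777, 2385 and 2764 in shOpn3 1 to 5. The 2 ranges were apart, and the log2 fold change was -1.19 (SE 0.21, adjusted p = 0.00262 by limma). Ninj2, ninjurin 2, an adhesion protein, had 947, 591, 601, 658 and 1313 normalized counts in shControl 1 to 5 and 320.4, 181, 285, 351 and 441 in shOpn3 1 to 5. Its lowest control was again in sample 2, above all shOpn3 values, and the log2 fold change was -1.36 (SE 0.26, adjusted p = 0.00349 by limma). Tf, the iron carrier transferrin, had 74282, 53104, 51692, 53417 and 97212 normalized counts in shControl 1 to 5 and 43498, 21222, 28518, 37610.5 and 44125 in shOpn3 1 to 5. It did not overlap between groups and fell by 0.92 (log2, SE 0.23, adjusted p = 0.0147 by limma), a call lost without controls 1 and 5 (adjusted p = 0.0529).

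Gsn, the actin-severing gelsolin, had 10046, 5286, 4638, 4972 and 10944 normalized counts in shControl 1 to 5 and 6016, 2762, 3712, 5711 and 6289 in shOpn3 1 to 5. The groups overlapped widely: shOpn3 1, 4 and 5 were above controls 2, 3 and 4. The log2 fold change of -0.52 (SE 0.29, adjusted p = 0.247 by limma) did not pass, and its 95% interval ran from -1.15 to 0.11. Sirt2, a tubulin deacetylase of the myelin sheath, had 9236, 5974, 5562, 5604 and 9819 normalized counts in shControl 1 to 5 and 5070.3, 3658, 4650.2, 6269 and 5305 in shOpn3 1 to 5. Only shOpn3 4 lay above any control, and the log2 fold change of -0.51 (SE 0.19, adjusted p = 0.0792 by limma) did not pass either, with an interval of -0.92 to -0.10. In the authors' deposited table Sirt2 had an adjusted p of 0.0351, Aspa 0.109 and Gsn 0.166.

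The size of the fall differed from pair to pair. In same-numbered pairs, 31 of the 33 genes were lower in shOpn3 in 5 of 5 pairs, against 20.7% of all genes. The median log2 difference over the 33 was -1.17 in pair 1, -1.29 in pair 2, -1.01 in pair 3, -0.66 in pair 4 and -1.27 in pair 5. Pair 4 had the smallest fall for 32 of the 33 genes, the exception being Gal3st1, whose smallest fall was in pair 3. Gsn and Sirt2 were higher in shOpn3 in pair 4 alone, by 0.20 and 0.16 on the log2 scale. The Opn3 level of that pair was the lowest of all relative to its control, at 15.3%, whereas pair 5, with a median of -1.27, had Opn3 at 55.6%. These percentages differed through the controls, which had 1007 and 261 normalized counts of Opn3. The shOpn3 samples 4 and 5 themselves were alike, at 154 and 145. With 5 pairs, no relation between the Opn3 level and the fall of the 33 was tested.

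**Figure D3:**
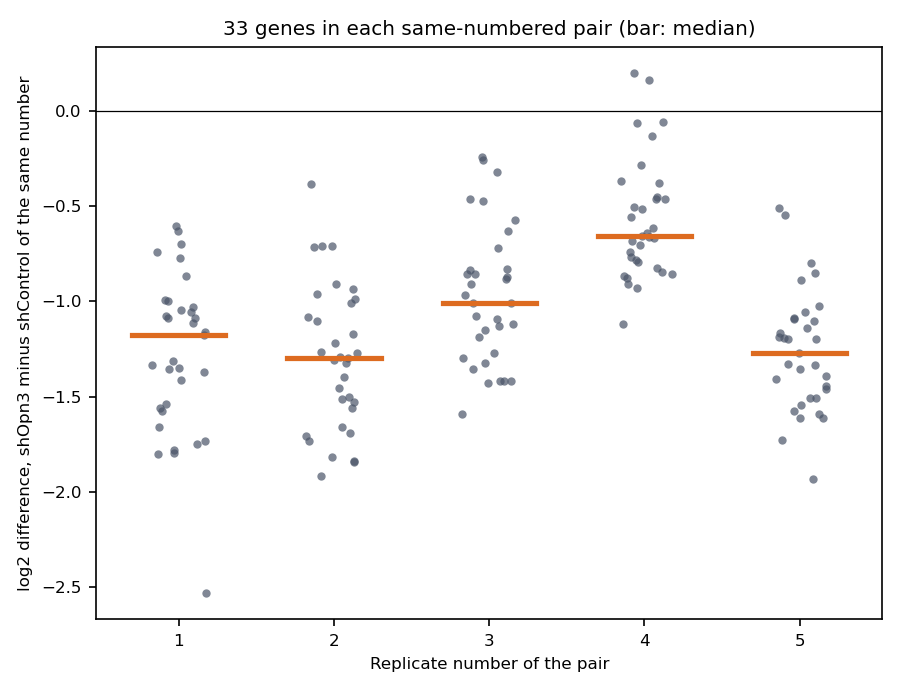
Log2 difference shOpn3 minus shControl for each of the 33 genes in each of the 5 same-numbered pairs, 1 point per gene, with the median of each pair marked. Pair 4 has a median of -0.66, and the other 4 pairs have medians from -1.29 to -1.01.

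The same libraries were high or low for nearly all of the 33. Among controls, shControl 5 was the highest for 31 genes and shControl 1 was second for 23. In shOpn3, sample 2 was the lowest for 32 of the 33 genes. The height of the 2 high controls differed by gene. For Ugt8, Aspa, Mal, Enpp2, Ermn and Tspan2, shControl 1 was at 0.90 to 0.99 of the mean of controls 2 to 4, while for Sox10, Mag, Gal3st1, Gsn and Hapln2 it was at 2.02 to 2.65 times that mean. These 2 libraries also had the lowest shares of mitochondrial reads among the controls, 7.58% and 8.33%, against 9.46% to 11.5% in the other 3 and 8.55% to 11.1% in shOpn3. Transthyretin (Ttr), made by the choroid plexus, had 737 normalized counts in shControl 1 and 2396 in shControl 5 and at most 244 elsewhere, and the choroid plexus factor Otx2 was at 0 in all libraries. The sum of the 8 choroid plexus markers, Ttr included, was 2085 in shControl 1 and 4142 in shControl 5. It was 1520 to 1661 in the other controls and 1460 to 1784 in shOpn3. Ttr made up 737 of the 2085 in shControl 1 and 2396 of the 4142 in shControl 5. The part of these measures in the high controls was not tested. Without the 2 controls, 25 of the 33 genes were still called lower, and without both pairs 1 and 5, 29 were.

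The 33 genes together took 2.25%, 1.47%, 1.44%, 1.46% and 2.85% of all reads in shControl 1 to 5 and 0.892%, 0.554%, 0.716%, 1.01% and 1.14% in shOpn3 1 to 5. The means were 1.89% ± 0.634 and 0.862% ± 0.233 (SD, n = 5), and the highest shOpn3 share, in sample 5, was below the lowest control share, in sample 3.

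To see whether the 33 fell to the same degree, each gene was also set against Mog within each sample. In that fit 97.1% of all genes were called above Mog, as they fell less, stayed or rose, and 0.0705% were called below it. The adjusted p is therefore barely stricter than the raw p. Of the other 32 genes, 7 fell less than Mog and none fell more, also at an unadjusted p under 0.05. Aspa differed from Mog by 0.93 on the log2 scale, Nfasc by 0.80, Sirt2 by 0.79 and Gsn by 0.78. Tspan2 differed by 0.60, Olig2 by 0.59 and Olig1 by 0.42. The limma adjusted p of these 7 ran from 0.000197 (Aspa) to 0.0413 (Olig1). With Mag in the place of Mog the differences of Olig1 and Tspan2 did not pass, and that of Olig1 was also lost on leaving out any of 6 libraries in turn. With the replicate block, 13 genes fell less than Mog and 1, Hapln2, fell more. The remaining 25, Sox10, Myrf and Gpr37 among them, could not be told from Mog in the fit without the block, and their estimates ran from -0.36 (Hapln2) to 0.39 (Cntn2).

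**Figure D4:**
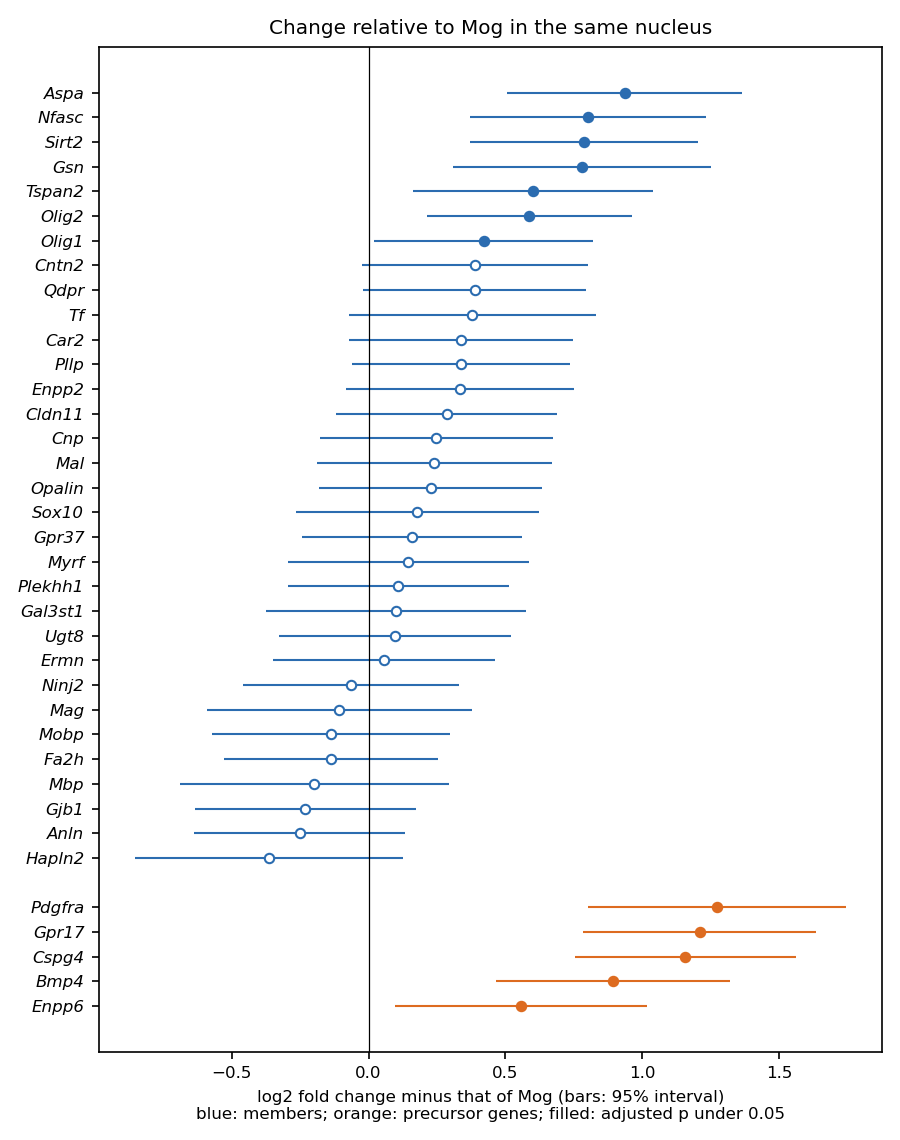
Log2 fold change of each of the 32 other genes minus that of Mog, with the 95% interval of limma as bars, so that a value above 0 means a smaller fall than that of Mog, with 5 precursor genes below in orange. The 7 of the set with an adjusted p under 0.05 all lie above 0, from Olig1 at 0.42 to Aspa at 0.93.

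Other genes of the same lineage were then counted from lists drawn up by function, with earlier results of these data known. Of 38 further genes of the mature oligodendrocyte that were tested, 25 fell and 2 rose, where 8.48% of all genes fell and 10.4% rose. The median log2 fold change of the 38 was -0.89. The strongest calls were Tmem88b, a membrane protein of the mature cell (-1.32), Trim59 (-0.94), the zinc finger factor St18 (-1.08) and Lpar1, a receptor for lysophosphatidic acid, which averaged 7443 normalized counts in shControl and 3719 in shOpn3. The 2 that rose, named after their values were seen, were Il33 (0.36, adjusted p = 0.0103 by limma), a nuclear cytokine of mature oligodendrocytes and astrocytes in rodents, and Efnb3 (0.61, adjusted p = 0.00809), an ephrin. Both were higher in shOpn3 in 5 of 5 pairs.

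Of 20 tested genes of precursors and newly forming oligodendrocytes, none fell and 2 rose by limma, with a median log2 fold change of -0.12. The share that rose is near the 10.4% of all genes called higher. At an unadjusted p under 0.05, 4 were lower and 4 higher, and DESeq2 on the recovered reads called 2 lower and 4 higher. Those that rose were Sox6, a factor of precursors (0.51, adjusted p = 0.00385 by limma), and Tcf7l2, a factor of newly forming oligodendrocytes that other cells also make (0.55, adjusted p = 0.0365). The call of Tcf7l2 was lost in 10 of the alternatives tried. Pdgfra, the growth factor receptor that defines precursors, averaged 8416 normalized counts in shControl and 8337 in shOpn3 (log2 fold change -0.02, SE 0.10). Cspg4, the proteoglycan NG2, stood at -0.14 (SE 0.17), and Gpr17, a receptor of committed precursors, at -0.09 (SE 0.23). Bmp4 stood at -0.41 (SE 0.24) and Enpp6, the enzyme that marks newly forming oligodendrocytes, at -0.74 (SE 0.26, adjusted p = 0.0633). Set against Mog within each sample, Pdgfra moved less by 1.27 on the log2 scale, Gpr17 by 1.21, Cspg4 by 1.16, Bmp4 by 0.89 and Enpp6 by 0.56. All 20 precursor genes were called above Mog in this fit, a share near the 97.1% of all genes. With the replicate block 3 of the 20 fell and 4 rose, where 15.2% of all genes fell and 15.1% rose, Enpp6 falling with an adjusted p of 0.0277. The difference of Enpp6 from Mog did not pass with Mag as the reference (adjusted p = 0.0808).

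Where 8.48% of all genes fell and 10.4% rose, 11 of 20 genes on the list for cholesterol synthesis fell and none rose. The median log2 fold change of the 20 was -0.37. None was higher at an unadjusted p under 0.05 either, and edgeR and DESeq2 called none higher. The demethylase Cyp51 fell by 0.60 on the log2 scale, the synthase Hmgcs1 by 0.45 and the oxidase Msmo1 by 0.42. With the replicate block 15 of the 20 fell, against 15.2% of all genes, and without both pairs with a high control 6 did. Of 15 genes of sphingolipid and very long chain fatty acid synthesis, 8 fell and none rose, again with none higher by an unadjusted p, edgeR or DESeq2, and the median was -0.27. The elongases Elovl7, Elovl1 and Elovl5 changed by -0.83, -0.74 and -0.53, and the ceramide synthase Cers2 by -0.52. Many cells other than oligodendrocytes make the enzymes of both lists. Of 11 axonal partners at the node and paranode, 2 fell, the potassium channel gene Kcna1 (-0.46) and the paranodal adhesion gene Cntn1 (-0.34). The 2 that rose were the secreted Lgi1 (0.53) and the channel gene Kcna2 (0.45). In a list of 11, counts of 2 each way are not far from the shares of all genes, 8.48% lower and 10.4% higher. The calls of Cntn1 and Kcna2 were each lost on leaving out any of 6 libraries in turn, and those of Kcna2 (0.28, adjusted p = 0.0987) without controls 1 and 5 and of Lgi1 (0.44, adjusted p = 0.109) without both pairs with a high control.

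**Figure D5:**
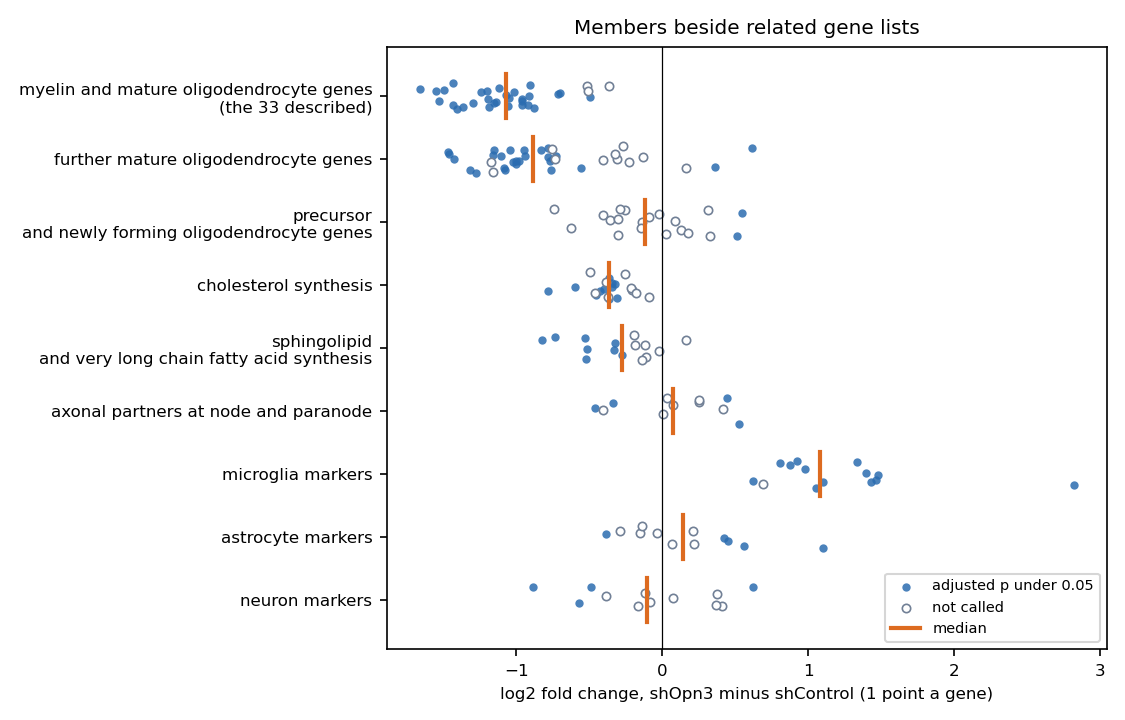
Log2 fold change of each tested gene in the 33 genes and in 8 related or other cell type lists, 1 point per gene, with the median of each list as a bar. The medians are -1.07 for the 33, -0.89 for further mature genes, -0.12 for precursor genes and 1.08 for microglia markers.

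Markers of other cells moved in the same libraries, where 10.4% of all genes rose and 8.48% fell by limma. Of 14 microglia markers, 13 rose by limma. None fell by limma, edgeR or DESeq2, or at an unadjusted p under 0.05. They had a median log2 fold change of 1.08 and Cd68, a lysosomal protein of phagocytes, at 2.82. None of the 14 was at 0, and their summed level ran from 26278 to 34556 normalized counts in shControl and from 42920 to 79912 in shOpn3, without overlap. Of 12 astrocyte markers, 4 rose, Gfap by 1.10, and 1 fell, and their sum ran from 347199 to 456309 in shControl and from 392712 to 537764 in shOpn3. Of 12 neuron markers, 3 fell, Nefh by 0.88, and 1 rose, Rbfox3 by 0.62. The balance changed with the setting, with 4 higher and 2 lower after quantile normalization, 3 and 3 with the same total per sample, and 4 higher and 1 lower on leaving out shOpn3 4. Without shOpn3 3, 1 was higher and 1 lower. The sums of the 12 ran from 165455 to 230418 in shControl and from 156656 to 270080 in shOpn3. The part of these cells in the fall of the 33 was not tested. Markers of Schwann cells, which make the myelin of peripheral nerve, bear on whether the myelin measured was central. Of the 5 Schwann cell genes tested, Pmp22, which other cells also make, fell (-0.66) and Pmp2 rose (0.60, adjusted p = 0.0358), a call lost in 8 of the alternatives tried. None of 10 endothelial and blood markers, 7 meningeal markers and 7 choroid plexus markers passed the test by limma. With the replicate block Ocln (0.29, adjusted p = 0.0356) and Slco1a4 (0.17, adjusted p = 0.0442) of the endothelial markers rose, both named after their values were seen. At an unadjusted p under 0.05, 1 endothelial marker and 1 choroid plexus marker were lower. The latter was Ttr, which was also called lower by edgeR, by DESeq2 and with the replicate block (adjusted p = 0.0186).

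For 13 of the 33 genes another RefSeq gene overlaps the same stretch of the chromosome, with a protein-coding one for Mog, Tspan2, Aspa, Anln, Sirt2 and Plekhh1. Whether strand was used in counting is not given in the sources used here, so the share of reads from those neighbours is uncertain.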

How the data were processed

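RNA-seq of 10 supraoptic nuclei (5 shControl, 5 shOpn3) was analysed from 1 deposited table. The submitters' processing notes name FastQC, STAR, featureCounts and DESeq2. The genome build, the versions and the strand setting are not given in the sources used here. The sample columns hold a signal that the authors made by dividing read counts by size factors, per the file headers and the values: in all 10 columns every value was a whole multiple of 1 read (tolerance 0.001), so reads and depth (33158341 to 39958578) were recovered. The deposited table also gives the authors' log2 fold change with its standard error, their test statistic (a score) and their p-values, raw and adjusted.

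Here log2(normalized count + 1) was tested with limma 3.58.1 (R 4.3.3, eBayes with trend) over 15597 genes with a mean of at least 10, shOpn3 against shControl, with Benjamini-Hochberg adjustment over all of them and a threshold of 0.05. A fold change on this scale understates the change of low genes. edgeR 4.0.16, DESeq2 1.42.0 and voom on the recovered reads, other scalings, filters and pseudocounts, each library left out and the replicate number as a block were alternatives, and leaving out controls 1 and 5, or both pairs with these numbers, was chosen after seeing the data. The fit was tested on simulated data, in which genes varied independently and with the same relative spread beyond counting noise. No simulated library shifted many genes together, so that test does not cover the pattern of shControl 1 and 5. A second fit took each gene minus Mog in the same sample.

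The labels say that each rat gave both nuclei, but none says that equal numbers mark 1 rat. Deviations from the group means correlated at 0.12 to 0.44 in all 5 same-numbered pairs. For the 20 combinations of different numbers the correlations ran from -0.45 to 0.36, with a median of -0.21. The ranges overlap, so these values do not settle whether equal numbers mark 1 rat. The numbers were treated as pairing the samples in the fits with the replicate block, in the same-numbered comparisons and in leaving out whole pairs. The main fit used no block. Nuclei of one group are taken as separate rats. Otherwise p-values measure only a spread that may be technical.

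The 33 genes and all lists were chosen with earlier results of these data known. Full values are given for up to 4 called genes without overlap in each role group, by adjusted p, for genes not called, for Anln, Gsn, Nfasc, Cntn2, Sox10, Olig1, Olig2 and Myrf, and for up to 4 called genes of each other list, plus 5 precursor genes. Some genes that the rule would name are not reported here.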

Additional observations from a re-analysis of the deposited data

Results flagged for a closer look

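Among the 33 genes, 4 of 68 groups of 5 samples held a value whose gap to its nearest neighbour passed Dixon's limit, where about 3.4 would do so by chance, as 1 group in 20 does. The count includes the total reads of the 2 groups of libraries.

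In shControl 5, Ermn had 22923 normalized counts, where the next control had 16080. Car2 had 27635 in the same library, with 18007 in the next. Anln had 4516 there, and 3120 in the next control. In shOpn3 2, Gal3st1 had 42.5 normalized counts, and the next lowest shOpn3 sample had 90.6. The calls of Ermn, Car2 and Anln were kept without shControl 5, and that of Gal3st1 without shOpn3 2.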

How the results depend on the processing

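None of the 33 genes changed direction in 792 values over 24 alternatives. In 770 the call stayed, in 14 it was lost and in 8 it was gained. The number called lower was 28 to 31 of 33 on leaving out 1 library at a time, while the number of all genes called ran from 1987 (without shOpn3 3) to 3056 against 2940 in the report's fit. It was 30 by edgeR and voom, 31 by DESeq2 (Sirt2 added), 29 after quantile normalization and 28 with the same total per sample. That scaling gave 2139 genes higher and 835 lower, against 1618 and 1322, and without the reads of the 33 it gave 2002 and 895. The median of all genes stayed between -0.03 and 0.05 (log2). Olig2, Nfasc, Sox10, Gal3st1 and Tf were the genes whose call was lost under at least 1 alternative, and the cause was not tested.

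With the replicate block, pairing equal numbers, 4726 of all genes were called by limma and 4777 by edgeR, and all 33 of the set. The block added Aspa, Gsn and Sirt2 and changed no other call among the 33 between groups. Relative to Mog, 13 genes fell less and 1 fell more with the block, against 7 and 0 without it. On leaving out 1 library at a time, 6 to 8 fell less and 0 to 1 fell more. Of 415 values relative to Mog, 397 kept the call, 8 lost it, 10 gained it and none reversed. Of 864 values of the other named genes, 818 kept the call, 33 lost it, 13 gained it and none reversed. The list of further mature genes had 21 to 30 lower and 2 higher under 25 settings, and the precursor list had 0 to 3 lower and 1 to 4 higher.

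At these depths no library held fewer than 40 reads of any of the 33.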
